A study of Mus musculus with 4 samples.

Results

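The 10 genes *Dsp*, *Jup*, *Pkp2*, *Dsg2*, *Cdh1*, *Epcam*, *Cldn6*, *Cldn7*, *Krt8* and *Krt18* encode parts of desmosomes, of tight junctions and of E-cadherin adhesion, and the keratins of simple epithelia. They were taken by symbol from the 23420 genes in the count files. The set was selected on the difference between wild type (WT) and *Patz1* KO cultures in these same libraries, so their differences are given as a description, without a test. All 10 passed the filter on low counts, as did 14269 genes in all. Of the 10, 7 had at least 10 counts in every library, while *Dsg2*, *Epcam* and *Cldn7* had fewer than 10 in a *Patz1* KO library and were kept for their WT counts.

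The study asked which zinc finger proteins act with cohesin at chromatin boundaries of the *Hox* clusters. Part of it measured how loss of such a protein, PATZ1, alters transcription in motor neurons (MNs). The paper also mapped chromatin contacts by Micro-C. It showed examples of differential loops between WT and PATZ1 KO MNs around *Dsp* and *Grb10*. Those contact data were not used here. The 2 WT libraries came from E14 mouse embryonic stem cells, and the 2 *Patz1* KO libraries (genotype Patz1 -/-) from E14 cells carrying the knockout. Both genotypes were kept in medium with LIF and inhibitors of MEK and GSK3, formed embryoid bodies, and were patterned with retinoic acid and a smoothened agonist into cervical MNs. KO lines in the study started from single Cas9-edited clones, and the labels name neither the clone behind a library nor whether both libraries share one. Replicates were described as independent differentiations, and each library is a whole culture, so that fewer cells of a type and less RNA per cell cannot be told apart.

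Desmosomes join neighbouring cells through the cadherins desmoglein and desmocollin. Inside the cell these bind plakoglobin and plakophilin, which bind desmoplakin and thereby the keratin filaments. Adherens junctions are built on classical cadherins and catenins linked to actin, and tight junctions seal the space between cells with claudins. Simple epithelia and pluripotent cells use E-cadherin, whereas neural tissue uses mainly N-cadherin, and the epithelium of the neural tube lacks most desmosomal and keratin proteins.

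The libraries held between 14769104 and 23881522 counts. Levels are given as CPM, the usual scaling of a count to library size, here with TMM factors, and log2 fold changes are *Patz1* KO over WT. *Patz1* itself had 1363 and 1499 (WT) and 1154 and 714 (*Patz1* KO) counts. This was a log2 fold change of -1.04 (SE 0.095, adjusted p = 1.10e-07, by the quasi-likelihood test of edgeR, adjusted after Benjamini-Hochberg as are all p-values here), and reads of 2 overlapping genes, *Gm11944* and *Gm12592*, may be among these counts.

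Of the 10 genes, 8 were lower in *Patz1* KO and the desmosomal plaque genes *Jup* and *Pkp2* were not. The 8 lower genes together made up 151 and 156 CPM in WT against 15.6 and 16.2 CPM in *Patz1* KO. Their median log2 fold change was -3.29, with -4.01 and -2.85 as the extremes, and the median of all 10 was -3.13. Across all genes tested the median was -0.0014 with an interquartile range from -0.34 to 0.34. Among all genes tested, 47.9% were called at an adjusted p below 0.05, 23.8% lower and 24.1% higher in *Patz1* KO, and 37.2% had both *Patz1* KO libraries below both WT libraries in CPM. The same was true of 8 of the 10 members, from which nothing is read because this contrast chose them.

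**Figure D1:**
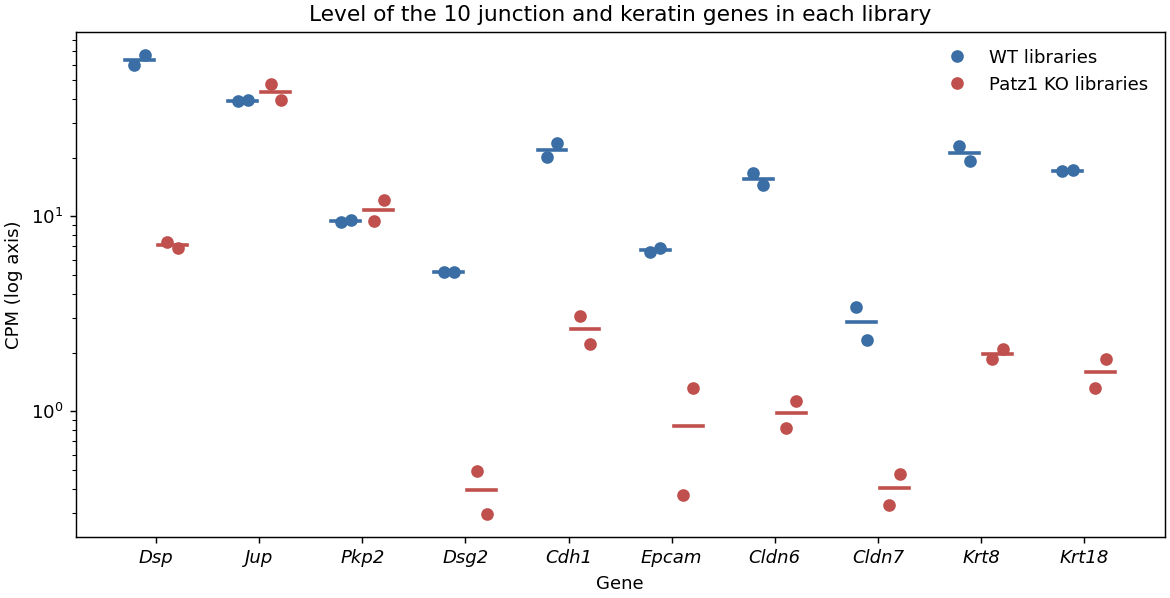
Level of each of the 10 genes in CPM (log axis) in the 2 WT and the 2 *Patz1* KO libraries, with points for libraries and short lines for group means. For 8 genes both *Patz1* KO points lie far below both WT points, while *Pkp2* overlaps and *Jup* is nearly level.

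Among the desmosome genes, *Dsp* (GRCm38 chromosome 13, 38151294 to 38198577) encodes desmoplakin, the link from the plaque to keratin filaments. It had 885 and 1065 (WT) and 178 and 115 (*Patz1* KO) counts, or 63.2 ± 5.35 and 7.10 ± 0.344 CPM (SD, n = 2 per group). The *Dsp* difference was 8.86-fold (log2 fold change -3.15, SE 0.12). Both KO libraries lay close together and far below WT.

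*Dsg2* (chromosome 18, 20558074 to 20604521) encodes desmoglein 2, the desmoglein of simple epithelia. It had 77 and 82 (WT) and 12 and 5 (*Patz1* KO) counts, which is 5.16 ± 0.0086 against 0.397 ± 0.139 CPM (SD, n = 2 per group). The *Dsg2* log2 fold change was -3.62 (SE 0.35). Without *Patz1* KO replicate 1 it was -4.07 and without *Patz1* KO replicate 2 it was -3.36.

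*Jup* (chromosome 11, 100368958 to 100397763) encodes plakoglobin, an armadillo protein found in both desmosomes and adherens junctions. It had 583 and 625 (WT) and 1153 and 661 (*Patz1* KO) counts, or 39.1 and 39.3 CPM against 47.6 and 39.4 CPM. The *Jup* log2 fold change was 0.15 (SE 0.11), and the lower KO library lay just above WT. Without *Patz1* KO replicate 2 the log2 fold change of *Jup* was 0.28. *Pkp2* (chromosome 16, 16213318 to 16272712) encodes plakophilin 2, another armadillo protein of the plaque. It had 140 and 153 (WT) and 229 and 204 (*Patz1* KO) counts, or 9.40 and 9.62 CPM against 9.45 and 12.2 CPM, so the groups overlapped. The *Pkp2* log2 fold change was 0.17 (SE 0.17) and -0.0038 without *Patz1* KO replicate 2. Desmoplakin and desmoglein transcripts thus stood many fold lower in cultures whose plakoglobin and plakophilin 2 transcripts were close to the WT level.

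The other 14 desmosome genes listed here were mostly at the limit of detection. Of the 6 tested, 5 were called lower and 0 higher, with a median log2 fold change of -1.56. *Dsc2*, desmocollin 2, the usual partner of desmoglein 2, fell from 119 and 123 (WT) to 24 and 13 (*Patz1* KO) counts (log2 fold change -3.12, SE 0.27, adjusted p = 5.1e-08). *Pkp3*, another plakophilin of the plaque, had 11 and 12 (WT) and 1 and 1 (*Patz1* KO) counts, a ratio of 15.3 with an exact 95% binomial interval from 3.78 to 134 for counting error only (adjusted p = 0.000649).

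The plakins *Evpl* (log2 fold change -1.70, adjusted p = 0.00159) and *Ppl* (-1.43, adjusted p = 0.00722), envoplakin and periplakin, which link junctions to filaments, fell less. *Pkp4*, a plakophilin relative that also occurs outside desmosomes, stood at 72.8 CPM in WT and 54.8 in *Patz1* KO (log2 fold change -0.41, adjusted p = 0.00271). *Ppl* was not called without WT replicate 1 (-1.23) or with DESeq2, and *Pkp4* was not called without WT replicate 2 (-0.32). The number called lower was 3 without either WT library. The remaining 8 genes, among them the epidermal desmogleins, reached at most 4 counts in a library, and 5 had none at all, so no difference in them was detectable at this depth.

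*Cdh1* (chromosome 8, 106603351 to 106670246) encodes E-cadherin, the classical cadherin of epithelia and of pluripotent cells. It had 300 and 378 (WT) and 75 and 37 (*Patz1* KO) counts, or 22.0 ± 2.57 and 2.65 ± 0.628 CPM (SD, n = 2 per group). The *Cdh1* difference was 8.10-fold (log2 fold change -3.02, SE 0.19), with the groups well apart. *Epcam* (chromosome 17, 87635979 to 87651129) encodes a surface glycoprotein that accompanies E-cadherin in epithelia. It had 98 and 109 (WT) and 9 and 22 (*Patz1* KO) counts, or 6.72 ± 0.195 and 0.842 ± 0.665 CPM (SD, n = 2 per group). The *Epcam* log2 fold change was -3.11 (SE 0.36), and it depended most on a single library, being -2.35 without *Patz1* KO replicate 1 and -4.15 without *Patz1* KO replicate 2.

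The rest of the adherens junction did not follow E-cadherin as a group. All 12 other genes listed were tested, with 4 lower, 2 higher and a median log2 fold change of -0.11. *Cdh3*, P-cadherin, had 58 and 50 (WT) and 6 and 11 (*Patz1* KO) counts (log2 fold change -3.05, SE 0.41, adjusted p = 8.97e-06), and without *Patz1* KO replicate 1 it was -2.40 and without *Patz1* KO replicate 2 -3.78. *Cdh2*, N-cadherin, had 4923 and 5343 (WT) and 7709 and 5084 (*Patz1* KO) counts, which is 333.3 and 310.6 CPM on average (log2 fold change -0.10, SE 0.091, adjusted p = 0.377). *Ctnnb1*, β-catenin, was likewise not called (-0.11, adjusted p = 0.434).

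Of the α-catenins, *Ctnna2*, the neural form, rose from 2308 and 2458 (WT) to 7983 and 5144 (*Patz1* KO) counts (log2 fold change 1.04, SE 0.089, adjusted p = 4.61e-08). *Ctnna1*, the form of epithelia and most other tissues, fell (-0.54, adjusted p = 6.27e-05). The nectins, which are adhesion molecules of the immunoglobulin family, went both ways, with *Pvrl3* (nectin-3) at -0.79 (adjusted p = 2.2e-06) and *Pvrl2* (nectin-2) at 0.30 (adjusted p = 0.0161). *Pvrl2* was not called with DESeq2 (0.31) or without WT replicate 2 (0.24).

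*Cldn6* (chromosome 17, 23679249 to 23682446), a claudin of embryonic epithelia and pluripotent cells, had the largest difference of the 10. It had 247 and 230 (WT) and 20 and 19 (*Patz1* KO) counts, or 15.5 ± 1.5 and 0.979 ± 0.218 CPM (SD, n = 2 per group). This was 16.1-fold (log2 fold change -4.01, SE 0.23). *Cldn7* (chromosome 11, 69964779 to 69967885), a claudin of many adult epithelia, had 51 and 37 (WT) and 8 and 8 (*Patz1* KO) counts. It stood at 2.88 ± 0.776 and 0.404 ± 0.104 CPM (SD, n = 2 per group), and its log2 fold change of -2.85 (SE 0.41) was the smallest of the 8.

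The 36 other tight junction genes were split. Of the 22 tested, 13 were called lower and 4 higher, with a median log2 fold change of -0.70. *F11r* (JAM-A, an adhesion molecule of the tight junction) fell from 359 and 415 (WT) to 80 and 65 (*Patz1* KO) counts (log2 fold change -2.82, SE 0.16, adjusted p = 2.5e-10). *Cgnl1*, paracingulin, a cytoplasmic junction protein, fell by 2.66 on the log2 scale (adjusted p = 4.04e-10), and *Lsr*, a protein of contacts between 3 cells, by 2.20 (adjusted p = 9.02e-10).

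*Cldn4* had 111 and 133 (WT) and 0 and 3 (*Patz1* KO) counts, a ratio of 108.3 with an exact 95% binomial interval from 36.6 to 529 (adjusted p = 6.55e-09). *Cldn11*, a claudin also known from myelin and testis, had 156 and 211 (WT) and 8 and 25 (*Patz1* KO) counts. Its log2 fold change of -3.84 (adjusted p = 9.62e-08) was -2.99 without *Patz1* KO replicate 1 and -5.14 without *Patz1* KO replicate 2. *Cldn12* moved against these, from 835 and 912 counts to 2203 and 1552 (0.69, adjusted p = 6.2e-06). It was named after its values were seen, because it was the most abundant per length of the 24 claudin genes with a matched exon length. The count called higher was 2 with DESeq2 or without WT replicate 1 and 1 without WT replicate 2. The 14 genes not tested had at most 7 counts in any library.

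*Krt8* and *Krt18* encode a type II and a type I keratin of simple epithelia, which assemble with each other. Their genes lie 23.7 kb apart on chromosome 15 (101996698 to 102004482 and 102028180 to 102032027). *Krt8* had 343 and 306 (WT) and 45 and 35 (*Patz1* KO) counts, or 21.1 ± 2.67 and 1.97 ± 0.163 CPM (SD, n = 2 per group). *Krt18* had 254 and 274 (WT) and 32 and 31 (*Patz1* KO) counts, or 17.1 ± 0.127 and 1.58 ± 0.374 CPM (SD, n = 2 per group). Fitted differences on the log2 scale were -3.43 (SE 0.19) for *Krt8* and -3.46 (SE 0.21) for *Krt18*, so the pair differed from each other by less than either standard error.

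Of 50 other keratin genes 5 passed the filter, and 29 were at 0 in all libraries. *Krt19*, a type I keratin of simple epithelia, fell from 150 and 177 (WT) to 11 and 17 (*Patz1* KO) counts (log2 fold change -3.93, SE 0.29, adjusted p = 8.36e-09), and was -3.37 without *Patz1* KO replicate 1 and -4.52 without *Patz1* KO replicate 2. *Krt7*, a type II keratin of simple epithelia, had 43 and 28 (WT) and 2 and 3 (*Patz1* KO) counts, a ratio of 18.9 with an exact 95% binomial interval from 7.73 to 60.03 (adjusted p = 7.95e-06).

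Of the keratins of stratified epithelium, *Krt1* and *Krt10* had enough counts for a test. *Krt1* had 4 and 2 (WT) and 27 and 12 (*Patz1* KO) counts (log2 fold change 2.23, SE 0.61, adjusted p = 0.00575), and was not called with DESeq2 (2.24), without *Patz1* KO replicate 1 (1.84) or without WT replicate 2 (1.78), and was 2.83 without WT replicate 1. *Krt10*, its usual partner in epidermis, was at 6.21 CPM in WT and 5.28 in *Patz1* KO (-0.24, adjusted p = 0.341), and the keratin-like *Krt222* was not called either (adjusted p = 0.287). *Krt15*, a keratin of basal cells that was below the filter and is named after its values were seen, had 9 and 4 (WT) and 1 and 0 (*Patz1* KO) counts.

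Compared per length of exon, as CPM per kilobase of exon (RPKM), the order of the 10 genes changed with the genotype. In WT the keratins led, with *Krt18* at 11.9 and 11.99 and *Krt8* at 11.8 and 9.83 RPKM, followed by *Cldn6*, *Dsp*, *Jup*, *Cdh1*, *Epcam*, *Pkp2*, *Cldn7* and *Dsg2*. Only *Pkp2* and *Cldn7* overlapped as neighbours in this WT order. In *Patz1* KO *Jup* came first at 7.39 and 6.12 RPKM and *Pkp2* second at 1.76 and 2.27, ahead of *Krt18*, *Krt8*, *Dsp*, *Cdh1*, *Cldn6*, *Epcam*, *Cldn7* and *Dsg2*. There the neighbours *Krt18* and *Krt8*, *Cdh1* and *Cldn6*, and *Cldn6* and *Epcam* overlapped, as did *Epcam* and *Cldn7*.

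The share of *Krt8* in the keratin pair overlapped between genotypes, while the shares of E-cadherin and of claudin 6 were lower in *Patz1* KO. *Krt8* made up 49.8% and 45.0% of the RPKM of *Krt8* and *Krt18* in WT and 50.8% and 45.3% in *Patz1* KO. *Cdh1* made up 9.70% and 11.1% of the summed RPKM of *Cdh1* and *Cdh2* in WT and 1.69% and 1.27% in *Patz1* KO. *Cldn6* took 20.9% and 18.4% of the RPKM of 24 claudin genes in WT and 1.72% and 2.13% in *Patz1* KO. Among these 24 genes it ranked 2 per length in WT, after *Cldn12*, and 4 in *Patz1* KO. The symbol *Cldn25*, at 33.9 CPM in WT and 43.9 in *Patz1* KO, had no matched exon length and is in neither the ranks nor the shares. *Jup* was 3.31% and 3.20% of the RPKM of *Jup* and *Ctnnb1* in WT and 4.03% and 3.68% in *Patz1* KO. These shares come from the contrast that chose the genes and were not tested.

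**Figure D2:**
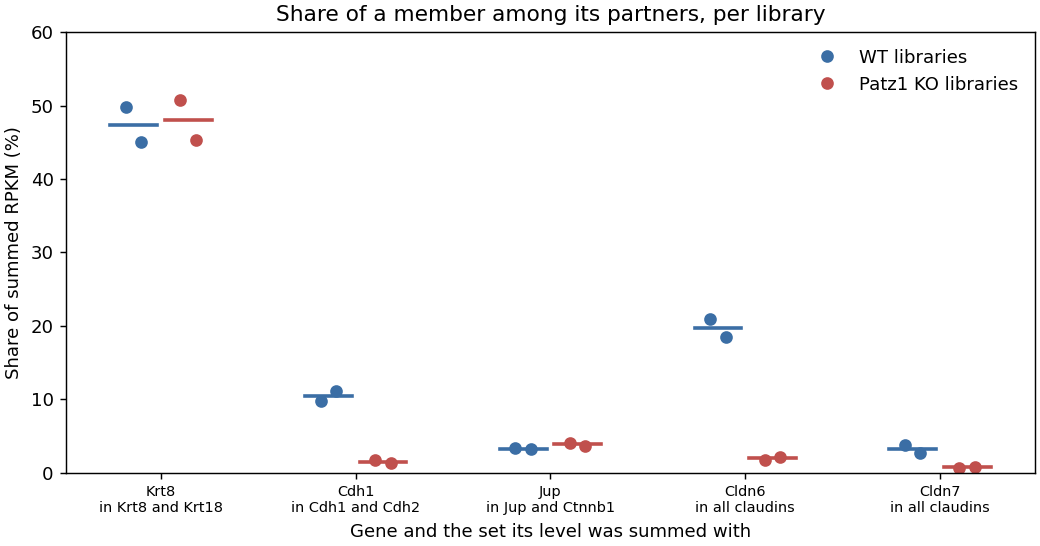
Share of each named gene (percent, linear axis from 0) in the summed RPKM of the gene set named under it, for the 2 WT and the 2 *Patz1* KO libraries, with points for libraries and lines for means. The *Krt8* share sits near 45% to 51% in all 4 libraries, whereas the *Cdh1* and *Cldn6* shares are several times smaller in both *Patz1* KO libraries.

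RefSeq promoters on GRCm38.p6, from 250 bases before to 50 bases after a start, were matched for 7 of the 10 genes with 8 windows, and *Pkp2*, *Dsg2* and *Cdh1* were not in the table. The hexamer CAGGTG, the E-box that SNAI and ZEB factors bind, occurred on either strand in 6 of the 8 windows, against 20.2% of all 32851 windows. These windows belonged to 6 of the 7 genes, all but *Jup*. For 5 of these genes 30-base stretches around it are shown on the strand of the gene, with CAGGTG or its reverse complement in capitals. The stretch of *Krt8* is not printed. They are shown because this hexamer was in the window of each matched gene of the lower 8.

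Dsp, chr13:38151285-38151314, plus strand: gaagaagccgacCAGGTGtggcctgggcgc
Epcam, chr17:87635948-87635977, plus strand: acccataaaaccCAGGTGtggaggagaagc
Epcam, chr17:87635780-87635809, plus strand: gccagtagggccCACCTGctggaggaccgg
Cldn6, chr17:23679260-23679289, plus strand: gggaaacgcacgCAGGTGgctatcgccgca
Cldn7, chr11:69965352-69965381, plus strand: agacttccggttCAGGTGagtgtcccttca
Cldn7, chr11:69965312-69965341, plus strand: tttcttcctcttCACCTGgacgaggagggg
Krt18, chr15:102027990-102028019, plus strand: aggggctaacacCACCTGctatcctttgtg

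*Cldn7* had the hexamer in the second of its 2 windows only, and *Cldn6* had a further match near the end of its window. The G-rich heptamer GGGAGGG, a core of sites bound by the related factors PATZ1 and MAZ, was in 3 of the 8 windows (of *Dsp*, *Krt8* and *Cldn7*) against 22.0% of all windows. The windows of *Epcam*, *Cldn6* and *Krt18*, which were lower as well, held none. The GC box GGGCGG was in 5 of the 8 windows, from all matched genes but *Krt8* and *Krt18*, against 35.7%. The 8 windows held 52.0% to 73.0% G or C, beside a median of 52.7% over all windows. The shares were not matched for base content. CCAAT was found in the window of *Jup* only (37.4% of all windows), TATAAA in that of *Krt8* only (13.6%), and AACCGGTT, a site of grainyhead-like factors, in none (0.146%). These matches are a description of letters and not of binding. The 250 bases before the start of *Dsp* (chr13:38151044-38151293, plus strand), where G-rich motifs were densest, and of *Jup* (chr11:100397791-100398040, minus strand), which was not lower, are shown with GGGAGGG and GGGCGG on either strand in capitals.

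Dsp: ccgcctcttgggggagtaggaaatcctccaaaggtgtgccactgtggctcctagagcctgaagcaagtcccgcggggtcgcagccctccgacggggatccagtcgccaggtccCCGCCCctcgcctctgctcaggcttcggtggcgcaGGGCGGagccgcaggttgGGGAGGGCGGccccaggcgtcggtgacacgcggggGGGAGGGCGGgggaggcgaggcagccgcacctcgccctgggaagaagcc
Jup: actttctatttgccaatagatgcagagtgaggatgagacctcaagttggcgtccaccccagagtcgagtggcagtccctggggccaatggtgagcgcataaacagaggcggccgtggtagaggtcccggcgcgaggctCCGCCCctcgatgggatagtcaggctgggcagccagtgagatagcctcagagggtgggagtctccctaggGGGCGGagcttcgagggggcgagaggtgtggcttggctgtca

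The *Dsp* stretch held GGGAGGG at 2 places, each overlapping 1 of its 4 GGGCGG matches, and 72.4% of its bases were G or C. The *Jup* stretch held no GGGAGGG and 2 GGGCGG matches at 62.0% G or C. *Dsp* was shown for its matches and *Jup* for its level, so the pair stands for no pattern among the matched genes. Any relation of a motif to a difference between genotypes was not tested.

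Genes that mark epithelia outside the junctions were then counted. Of 15 epithelial surface and polarity genes, 13 were tested, 10 were called lower and 0 higher, and the median log2 fold change was -2.58. *Spint1* and *Spint2* encode inhibitors of membrane serine proteases, and *St14* (matriptase) and *Prss8* (prostasin) encode such proteases. *Spint1* fell from 102 and 87 (WT) to 15 and 8 (*Patz1* KO) counts (log2 fold change -3.44, SE 0.32, adjusted p = 1.3e-07) and *Spint2* from 211 and 215 to 107 and 83 (-1.57, adjusted p = 9.19e-07).

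*St14* had 62 and 65 (WT) and 6 and 11 (*Patz1* KO) counts (log2 fold change -3.28, adjusted p = 2.2e-06), and *Prss8* 34 and 48 against 5 and 1 (-4.13, adjusted p = 3.5e-06). Leaving out *Patz1* KO replicate 1 or 2 gave -2.63 and -4.02 for *St14* and -5.30 and -3.64 for *Prss8*. *Llgl2*, a polarity gene of the basolateral side, fell by 2.58 on the log2 scale (adjusted p = 7.3e-07). In contrast *Ezr*, which links membranes to actin in many cell types, was at 115.4 and 115.1 CPM (log2 fold change -0.0037, adjusted p = 0.975). It was named after its values were seen.

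Of 12 regulators of epithelial transcription and splicing, 7 were tested, 6 were called lower and 0 higher, and the median log2 fold change was -2.14. *Grhl2*, a grainyhead-like factor known to activate *Cdh1* and claudin genes, had 37 and 37 (WT) and 1 and 2 (*Patz1* KO) counts, a ratio of 32.9 with an exact 95% binomial interval from 10.8 to 163 (adjusted p = 1.67e-06). *Elf3*, an epithelial ETS factor, had 29 and 17 (WT) and 1 and 1 (*Patz1* KO) counts, a ratio of 30.6 with an interval from 8.01 to 260.5 (adjusted p = 2.85e-05).

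*Esrp1*, an epithelial splicing factor, had 24 and 24 (WT) and 1 and 3 (*Patz1* KO) counts, a ratio of 15.98 with an interval from 5.85 to 61.0 (adjusted p = 4.4e-05). Its relative *Esrp2* fell by 2.14 on the log2 scale (adjusted p = 0.00134), by 1.38 without *Patz1* KO replicate 1 and by 3.14 without *Patz1* KO replicate 2. *Klf4*, a factor of epithelia and pluripotent cells, fell by 1.78 (adjusted p = 0.000799), with -1.27 without *Patz1* KO replicate 1 and -2.34 without *Patz1* KO replicate 2. All of these regulators were scarce in WT, with at most 3.84 CPM in a library.

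Factors known to repress *Cdh1* were counted as well. Of 7 listed, 5 were tested, 4 were called lower, 0 higher and *Zeb1* not at all, with a median log2 fold change of -2.31. *Snai2* had 60 and 102 (WT) and 18 and 10 (*Patz1* KO) counts (log2 fold change -2.93, SE 0.34, adjusted p = 1.76e-06) and *Twist1* 53 and 70 against 12 and 14 (-2.63, adjusted p = 7.83e-06). *Snai1* fell by 2.31 on the log2 scale (adjusted p = 0.00165) and was not called without WT replicate 2 (-1.68). These 3 are also known from neural crest and mesenchyme.

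The *Zeb* genes, which neural cells express as well, were far more abundant. *Zeb2* fell from 124.5 to 80.5 CPM (log2 fold change -0.63, adjusted p = 1.17e-05), while *Zeb1* stood at 113.2 and 106.3 CPM (-0.092, adjusted p = 0.395). Over the 7 lists of other genes together, 70 of 146 genes were tested, 44 were called lower (62.9%) and 7 higher (10%), beside 23.8% and 24.1% of all genes tested, and their median log2 fold change was -1.26. The lists were drawn up with results of these libraries known.

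**Figure D3:**
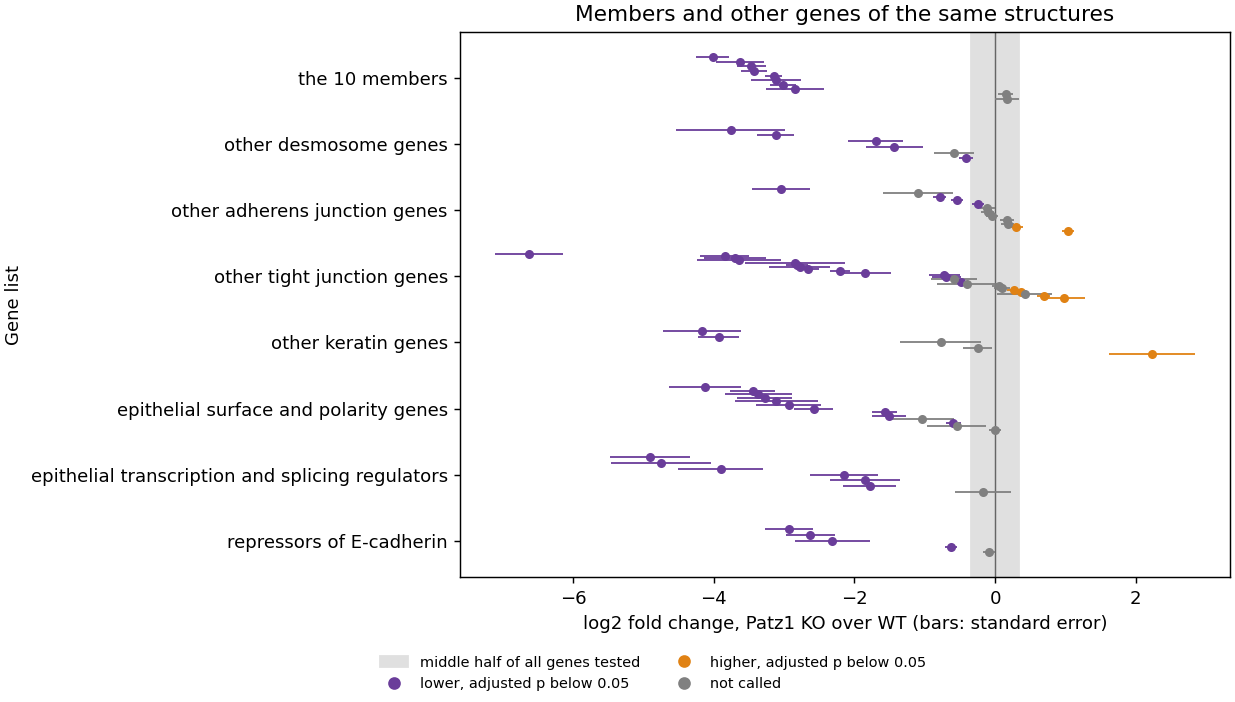
Fitted log2 fold change (*Patz1* KO over WT, bars show the standard error) of the 10 members and of each tested gene in the 7 other lists, coloured by call at an adjusted p below 0.05, with the interquartile range of all genes tested (-0.34 to 0.34) in grey. The 2 grey members are *Jup* and *Pkp2*. Genes with few counts, such as *Pkp3* (SE 0.77) and *Marveld3* (SE 0.71), have the longest bars, and *Cldn4* (SE 0.48) lies leftmost.

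The nearest tested genes on either side of the 10 members were examined next, with other members left out, so *Krt8* and *Krt18* do not count as neighbours of each other. Of 18 distinct neighbours, 7 were called lower, 3 higher and 8 not at all, with a median log2 fold change of -0.22, beside 23.8% lower and 24.1% higher among all genes tested. The count called lower was 4 with DESeq2 and 3 without either WT library. Only 4 of them had an absolute log2 fold change of at least 1, and 3 of these belong to related families, namely *Dsc2* beside *Dsg2* (gap 498.5 kb), *Cdh3* beside *Cdh1* (46.1 kb) and *Krt1* beside *Krt8* (145.9 kb). The fourth was *Ttr*, transthyretin, on the other side of *Dsg2* (60.8 kb), which had 13 and 28 (WT) and 4 and 2 (*Patz1* KO) counts (log2 fold change -3.12, adjusted p = 0.000351, and -2.52 without WT replicate 2). The nearest tested neighbours of *Dsp*, *Epcam*, *Cldn6* and *Cldn7* thus changed by less than 1 on the log2 scale. Genes below the filter on low counts that may lie closer were not covered. Exons of *Dsp*, *Dsg2* and *Krt8* overlap annotated genes on the other strand (*Gm10129*, *Gm16090* and *Gm36026*), and as the strand setting of the counting is not given in the sources used here, reads of each pair cannot be told apart.

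Markers of other cell types were summed to show what moved with these genes. The MN markers that define the labelled cell type were abundant in all libraries, and 8 of the 9 were called higher, beside 24.1% of all genes tested. Their summed level was 687 to 742 CPM in WT and 1069 to 1173 CPM in *Patz1* KO. The remaining marker, *Isl1*, was not called (log2 fold change -0.19, adjusted p = 0.0767) and is named after its values were seen. Both its *Patz1* KO libraries (111.6 and 121.9 CPM) lay below both WT libraries (132.3 and 134.2 CPM). *Prph*, peripherin, had the smallest p (log2 fold change 1.33, adjusted p = 3.3e-09). Of 7 neural progenitor markers, 3 were lower and 2 higher, beside 23.8% lower and 24.1% higher among all genes tested. Their sum went from 835 to 862 CPM in WT to 603 to 623 CPM in *Patz1* KO, with *Hes5* lower by 0.99 on the log2 scale (adjusted p = 9.2e-07). *Nes*, nestin, made up most of that sum (492.4 and 298.4 CPM), while *Sox1* was higher by 1.03 (adjusted p = 1.78e-06) and *Nkx6-1* by 0.47 (adjusted p = 0.00218), and these 3 are named after their values were seen.

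Most tested markers of primitive and visceral endoderm, epithelia that arise in embryoid bodies, moved in the direction of the 8 lower genes. *Sox7* (log2 fold change -0.11, adjusted p = 0.826) and *Afp* (-0.036, adjusted p = 0.959) did not, and are named after their values were seen. Of 11 listed, 9 were tested, 7 were called lower and 0 higher, beside 23.8% lower and 24.1% higher among all genes tested. None was at 0 in all libraries, and the summed level was 45.5 to 54.2 CPM in WT and 8.59 to 8.83 CPM in *Patz1* KO. *Dab2*, an endocytic adaptor of endoderm, had 241 and 300 (WT) and 32 and 38 (*Patz1* KO) counts (log2 fold change -3.34, SE 0.22, adjusted p = 1.95e-09). Floor plate markers moved too, with 5 of 5 called lower and a sum of 860 to 868 CPM in WT and 557 to 625 CPM in *Patz1* KO, although *Spon1* among them was not called with DESeq2 or in 3 of the 4 fits that left out a library. *Shh*, the signal made by the floor plate, had the smallest p of this list (log2 fold change -2.99, adjusted p = 1.59e-11). The part of either cell type in the lower junction and keratin levels was not tested.

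The listed markers of pluripotent cells and of surface ectoderm, which also carry several of these genes, were scarce in both genotypes. Whether such cells contributed to the junction and keratin levels was not tested. Of 9 pluripotency markers 3 could be tested, *Fgf4* and *Utf1* were at 0 in every library, and the sum was 6.92 to 8.49 CPM in WT and 5.404 to 6.74 CPM in *Patz1* KO. *Dppa5a* alone was called lower (log2 fold change -1.71, adjusted p = 0.0118), and it was not called with DESeq2 or without either WT library. *Nanog*, named after its values were seen, missed the threshold (-0.70, adjusted p = 0.0551) but passed it in 6 of the 10 alternatives, with -1.16 without *Patz1* KO replicate 2. None of 5 surface ectoderm markers reached the filter, *Krtdap* was at 0 in all libraries, and their sum was at most 0.739 CPM in WT and 0.119 CPM in *Patz1* KO.

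**Figure D4:**
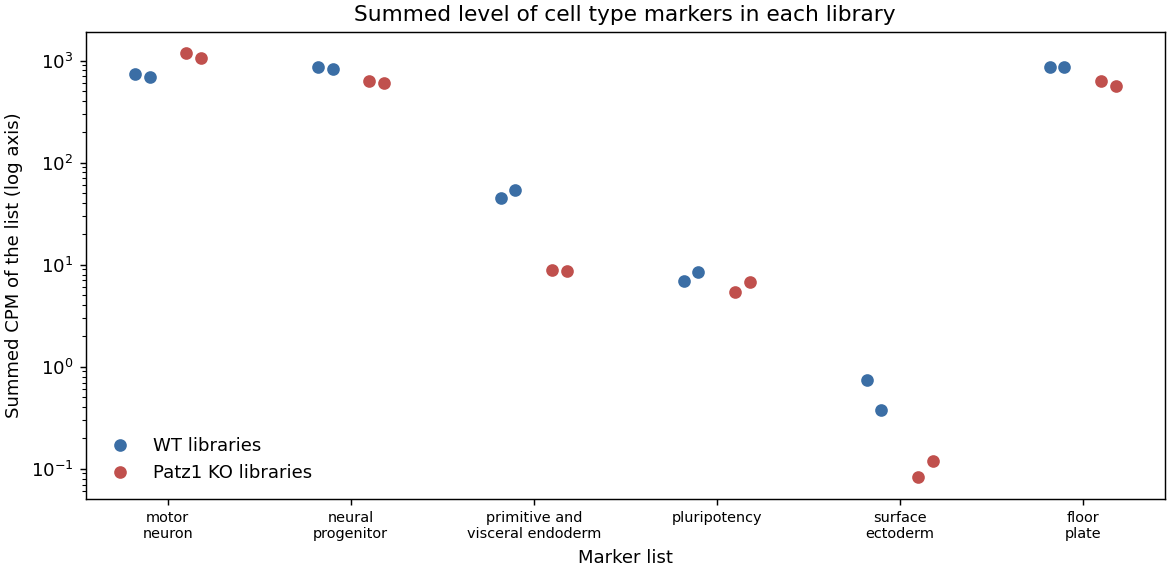
Summed CPM (log axis) of each marker list in the 2 WT and the 2 *Patz1* KO libraries, one point per library. The endoderm sum is 45.5 to 54.2 CPM in WT and under 9 CPM in *Patz1* KO, while the MN sum is higher in both *Patz1* KO libraries.

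The genes whose profile over the 4 libraries lay nearest to the median profile of the 10 members were found by Euclidean distance between log2 CPM values centred on each gene. Among 10887 other genes with a mean of at least 100 counts, the nearest were *Shh* (distance 0.0995), *Grb10* (0.141), *Gli3* (0.180), *Frem2* (0.187) and *Lhfpl2* (0.200). *Gli3*, for example, had 322 and 424 (WT) and 70 and 44 (*Patz1* KO) counts. *Dsp* itself was 0.118 from the median profile, *Epcam* 1.13, and *Jup* and *Pkp2* more than 3.2. With 2 libraries a group, a profile of this kind holds little beyond the size of the fall.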

How the data were processed

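The authors deposited raw read counts per gene symbol, 1 file per library, for 2 WT and 2 *Patz1* KO cultures. The paper names mm10 and Bowtie 2, and the submitters' processing notes list TopHat2 2.1.1, Bowtie2 2.3.1, featureCounts 1.6.2 and DESeq2. The annotation and strand setting are not given in the sources used here. Total counts went from 14769104 to 23881522. The members and lists were chosen with earlier results of these data known. Counts were filtered with filterByExpr (minimum count 10), scaled by TMM and fitted across all genes with edgeR 4.0.16 (quasi-likelihood test, limma 3.58.1, R 4.3.3), with Benjamini-Hochberg adjustment at 0.05. The SE is the absolute log2 fold change over the square root of F. DESeq2 1.42.0 was an alternative. With 2 libraries against 2, an exact permutation test cannot pass 0.05, so none was run. The p-values set a group difference against the spread between these libraries, which the fit moderates over all genes. Whether they cover variation between KO clones is not known, as the labels do not name the clone. Replicates differed beyond sampling noise (chi-square per gene 10.5 in WT and 23.4 in *Patz1* KO). Scripts were tested on simulated data. Positions and exon lengths came from GENCODE M21 (GRCm38, the assembly of mm10), where 23009 symbols had a single match. Genes named were the members, *Patz1*, in each list the 5 genes with the smallest p, neighbours called with an absolute log2 fold change of at least 1, the 5 nearest profiles, and markers with the smallest p of their list or at 0 throughout. *Cdh2* and *Ctnnb1* were named as partners in the shares, and *Gm* genes only as overlaps. *Cldn12*, *Cldn25*, *Ezr*, *Spon1*, *Krt15*, *Nanog*, *Nes*, *Sox1*, *Nkx6-1*, *Isl1*, *Sox7*, *Afp* and the low-count genes of the closing section were named after their values were seen. Alternatives were other scalings, no or a stricter filter, a replicate block, DESeq2 and leaving out each library.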

Additional observations from a re-analysis of the deposited data

How the results depend on the processing

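Calls on the members follow from how they were chosen and are given as a description, not as support. They were 8 lower in every alternative but the requirement of at least 10 counts in every library, which removed 3 of the 10 and left 5. Without 1 library 0 to 1 passed as higher (*Jup*, without *Patz1* KO replicate 2), and *Pkp2* changed sign without *Patz1* KO replicate 2, its log2 fold change going from -0.0038 to 0.36 over these fits. The replicate numbers are not known to pair the cultures (the correlation of replicate differences between genotypes was 0.0304), and with the replicate number as a block 8 members were called lower, with 7361 genes called in all against 6836. DESeq2 called 5121 genes.

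Requiring 10 counts in every library also left fewer listed genes, with 6 tight junction, 1 keratin, 4 surface and polarity genes and 1 regulator called lower and 0 keratins higher. Its medians were -1.44 (desmosome), -0.41 (tight junction), -2.09 (keratin), -1.51 (surface and polarity), -0.99 (regulators) and -1.63 (repressors). With no filter, which adds genes of few counts, medians were -0.56 (desmosome), -1.16 (tight junction), -1.59 (keratin) and -2.72 (surface and polarity). With DESeq2 they were -0.57, -1.16, -1.85 and -2.93 in this order, and 1 adherens junction gene, 2 tight junction genes and 0 keratins were called higher, with 4 neighbours lower and 1 higher.

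Over the 4 fits that left out 1 library, in which the lone sample of a group is assumed to vary like the others, the calls lower were 3 to 5 for desmosome genes and 3 to 6 for neighbours. The calls higher were 1 to 3 (adherens), 1 to 5 (tight junction), 0 to 1 (keratin) and 1 to 4 (neighbours). Medians went from -1.61 to -1.23 (desmosome), -0.86 to -0.71 (tight junction), -1.69 to -0.11 (keratin), -2.74 to -1.60 (regulators) and -2.75 to -1.68 (repressors). Depth limits what can be said of genes with a handful of counts in *Patz1* KO.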

Other observations

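Several listed genes fell short of the filter on low counts and are given as counts only, chosen after their values were seen. *Rab25*, an epithelial trafficking GTPase, had 9 and 7 (WT) and 3 and 0 (*Patz1* KO) counts. *Cldn9*, a claudin closely related to *Cldn6*, had 5 and 4 against 0 and 1, *Cldn8* 6 and 2 against 0 and 0, and *Ildr1*, a protein of tricellular contacts like *Lsr*, 1 and 7 against 0 and 0. In contrast *Ovol1*, an epithelial zinc finger factor, had 3 and 1 (WT) and 4 and 5 (*Patz1* KO) counts. *Trp63*, a defining factor of stratified epithelium, had 2 and 0 (WT) and 0 and 2 (*Patz1* KO) counts.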
